A study of Rattus norvegicus with 12 samples.

Results

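The data described here are the hepatic transcript levels of 10 genes of branched-chain amino acid breakdown, out of 24355 gene names in the deposited table. They are Bckdk and Ppm1k, which set the activity of the branched-chain ketoacid dehydrogenase complex (BCKDH), Bckdha, Bckdhb, Dbt and Dld, which encode its subunits, and Bcat2, Ivd, Mccc1 and Hibch, which encode enzymes on either side of it. The genes were chosen by name as those around Bckdk, whose lower level in this same comparison was already known, and the main row of a gene was selected on its mean level over all 12 livers, control and EtOH alike. The 10 genes have 14 rows, of which 12 were above 0 in at least 1 liver and 2 were listed at 0 in every liver.

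Poly(A) RNA was sequenced from whole livers of female rats of the inbred alcohol-preferring strain iP10a, with 1 library per animal. The 6 EtOH animals chose freely between water and bottles with ethanol at 10, 20 or 30% by volume over 23 weeks, and the 6 control animals drank water only. All animals ate ad libitum and were 38 weeks old at collection, apart from EtOH animal 6, which was 39 weeks old, and the study's methods state that blood alcohol was no longer detectable at sacrifice. The groups were not pair-fed, and the study states from unpublished data that P rats eat less chow to offset the calories of ethanol. It saw no difference in body weight while weights were taken. The part of chow intake in the differences below was not tested. The strain was selected and inbred for alcohol drinking, so the values describe this strain and sex. Since whole liver was sequenced, fewer cells of a type and less RNA per cell cannot be told apart.

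Leucine, isoleucine and valine are first transaminated to their ketoacids and then irreversibly decarboxylated by BCKDH in the mitochondrial matrix. The kinase encoded by Bckdk phosphorylates the E1 alpha subunit and switches the complex off, and the phosphatase encoded by Ppm1k removes the phosphate and switches it on. The liver is known for low transaminase and high BCKDH activity, so that it mainly oxidizes ketoacids that other organs release.

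The main finding of the comparison was a change of opposite sign in the kinase and the phosphatase. Bckdk fell to 0.536 times the control mean in the EtOH livers, and Ppm1k rose to 1.75 times the control mean. Dbt, the E2 core of the complex, rose to 1.18 times, while Bckdha, Bckdhb and Dld were not called. The multiples are ratios of group means as deposited, whereas the calls were made on normalized values. Levels are given in RPKM, reads scaled to transcript length and to the mapped reads of the library. The log2 of RPKM plus 0.5, quantile normalized between livers, was tested in limma with a trend of variance on level, and a transcript was called at a Benjamini-Hochberg adjusted p below 0.05 over all 21718 transcripts above 0 in at least 1 liver. Of the 10 genes 3 were called, 1 lower and 2 higher in the EtOH livers, where 2.42% of all transcripts were called, 1.29% lower and 1.13% higher. On the normalized scale the log2 fold changes were -0.74 for Bckdk, 0.94 for Ppm1k and 0.38 for Dbt. Without normalization between livers, Ppm1k (0.83, adjusted p = 0.051 from limma) and Dbt (0.23, adjusted p = 0.12 from limma) were not called. The study's own results had named Bckdk before these genes were chosen, so its call is a description and not independent evidence. The call of Bckdk held in 23 of 24 alternative fits, that of Dbt in 15 and that of Ppm1k in 9.

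The window before the start of the called genes is shown for Bckdk and Dbt, which changed in opposite directions. Of the 10 genes, 8 have an entry in the RefSeq promoter table for the rat build GRCr8, and those without one are Ppm1k and Bckdha. Each sequence is the 250 bases before the annotated start, read 5′ to 3′ on the strand of the gene. The Bckdk window lies at chr1:191945559-191945808 on the plus strand and the Dbt window at chr2:207166410-207166659 on the plus strand. Capitals mark the GC box GGGCGG and the CCAAT box, each searched on both strands, so that they also appear as CCGCCC and ATTGG.
Bckdk: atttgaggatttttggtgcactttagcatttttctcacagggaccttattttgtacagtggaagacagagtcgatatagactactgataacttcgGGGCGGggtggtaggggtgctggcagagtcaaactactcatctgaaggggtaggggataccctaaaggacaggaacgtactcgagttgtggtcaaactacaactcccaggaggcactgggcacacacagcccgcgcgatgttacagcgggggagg
Dbt: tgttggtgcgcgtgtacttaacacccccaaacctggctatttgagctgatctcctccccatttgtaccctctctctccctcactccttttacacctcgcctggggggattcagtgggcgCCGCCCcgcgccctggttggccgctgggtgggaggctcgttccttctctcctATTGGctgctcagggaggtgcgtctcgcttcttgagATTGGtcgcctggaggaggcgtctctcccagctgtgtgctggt

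The Bckdk window held 1 GC box, 155 to 150 bases before the start, and no CCAAT box. The Dbt window held 1 GC box, 131 to 126 bases before the start, and 2 CCAAT boxes, at 79 to 75 and 43 to 39 bases. None of these matches overlapped. Over 27457 windows of this length, 32.4% held GGGCGG and 34.3% held CCAAT. Of the 8 genes with a window, 6 held GGGCGG and 5 held CCAAT (Bckdhb, Dbt, Dld, Ivd and Mccc1). The E-box CACGTG, found in 5.79% of all windows, the sterol regulatory element (0.0838%) and the amino acid response core TGATGCAAT (0.171%) were in none of the 8. The G+C content was 51.2% for Bckdk and 60.8% for Dbt, where the median over all windows was 52%. A match, or the lack of one, describes the letters of the window only.

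Bckdk, which the table lists on chromosome 1 at positions 187190381 to 187194906, encodes the only kinase known to act on BCKDH. The sources used here do not name the genome build of these positions. In the control livers Bckdk lay between 19.6 and 24.5 RPKM with a median of 23.3, and in the EtOH livers between 10.8 and 14.9 RPKM with a median of 11.2. All 6 EtOH livers lay below the lowest control liver, and the highest EtOH liver, animal 1, was still well under the lowest control liver, animal 4. Group means were 22.8 ± 1.95 RPKM in control and 12.2 ± 1.81 RPKM in EtOH livers (SD, n = 6 each). The log2 fold change was -0.74 with a standard error of 0.10 and a 95% interval of -0.95 to -0.53 (adjusted p = 0.0029 from limma). The values rested on 109 to 255 reads per liver. Leaving out any 1 liver kept the log2 fold change between -0.79 and -0.70 and the adjusted p at or below 0.010 (limma). With animal number as a block the adjusted p was 0.051.

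Ppm1k, on chromosome 4 at positions 87366273 to 87390223, encodes the mitochondrial phosphatase of the E1 alpha subunit, also named PP2Cm. Control livers ranged from 4.06 to 11.1 RPKM with a median of 10.5, and EtOH livers from 13.3 to 19.7 RPKM with a median of 15.8. Every EtOH liver lay above every control liver. Control animal 3 was far below the other controls, which began at 8.25 RPKM. Group means were 9.21 ± 2.74 RPKM in control and 16.1 ± 2.67 RPKM in EtOH livers (SD, n = 6 each), and the reads per liver ranged from 36 to 307. The log2 fold change was 0.94 with a standard error of 0.22 and a 95% interval of 0.47 to 1.41 (adjusted p = 0.044 from limma). The call was close to its threshold, since it held in 9 of 24 alternative fits, with adjusted p values from 0.020 to 0.12. Of the 12 fits without 1 liver, it held in 2, those without control animal 3 (log2 fold change 0.74, adjusted p = 0.025 from limma) and without control animal 6 (adjusted p = 0.038 from limma).

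Groups that did not overlap were found for 3.10% of all tested transcripts, 2.43% with the EtOH livers lower and 0.677% with the EtOH livers higher. Among the main rows of the 10 genes, Bckdk was the only member of the first kind and Ppm1k the only member of the second.

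**Figure D1:**
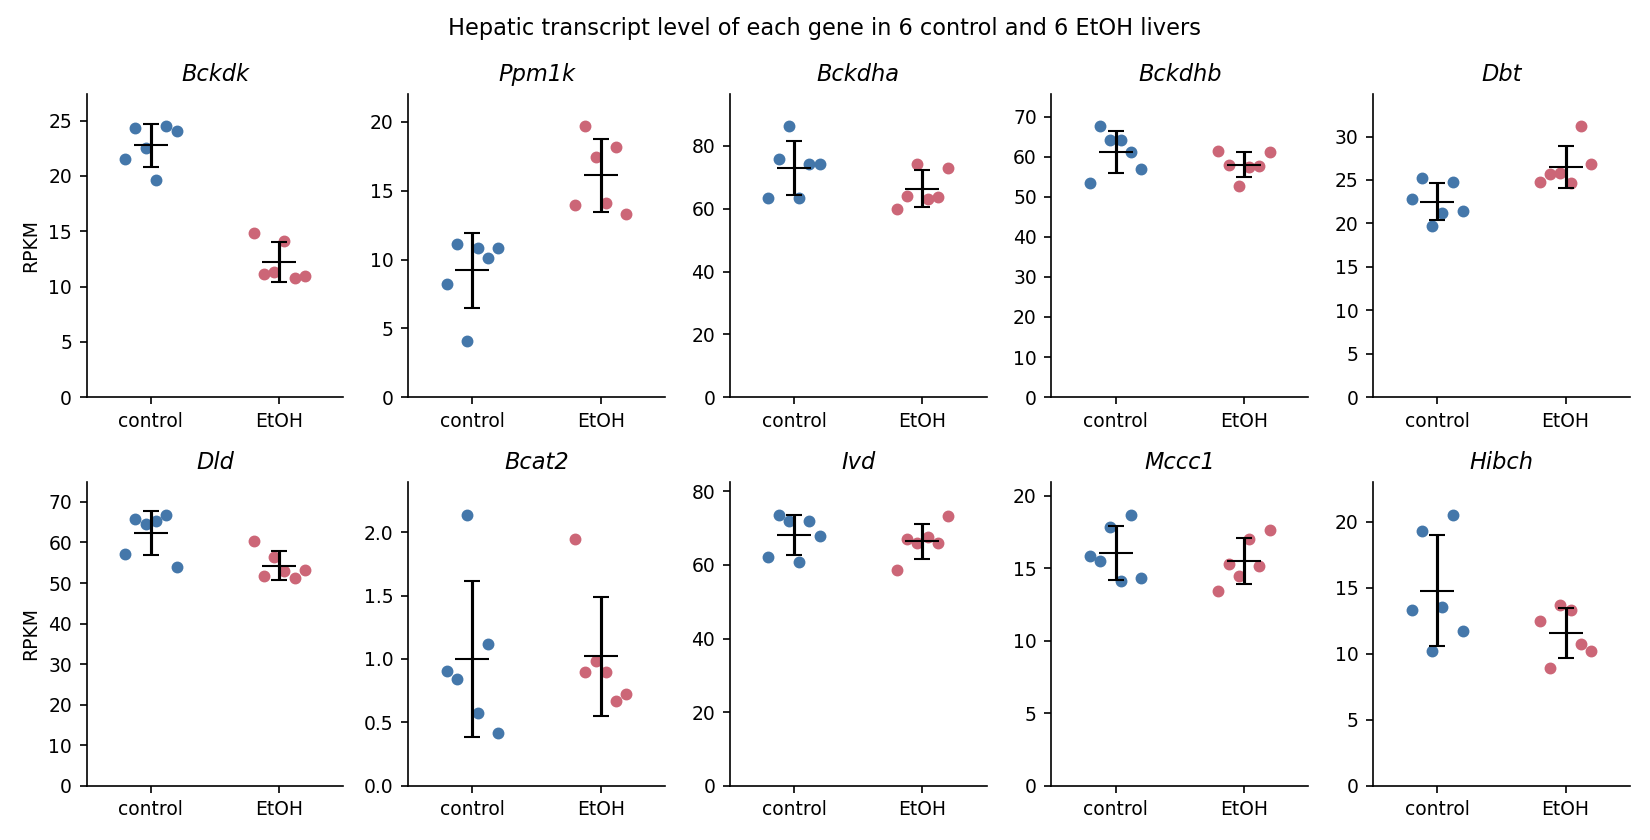
RPKM (vertical axes, from 0) of the main row of each of the 10 genes, with 1 point per liver, for 6 control (blue) and 6 EtOH (red) livers. Black marks are the mean ± SD. The groups are apart for Bckdk (19.6 RPKM and above against 14.9 and below) and Ppm1k (11.1 and below against 13.3 and above) and overlap for the other 8 genes.

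Dbt, on chromosome 2 at positions 212759312 to 212788177, encodes the E2 transacylase that forms the core of BCKDH and binds the kinase. It ranged from 19.7 to 25.2 RPKM in control livers, with a median of 22.1, and from 24.7 to 31.2 RPKM in EtOH livers, with a median of 25.7. The groups overlapped slightly, with 4 of 6 EtOH livers above the highest control liver and 4 of 6 control livers below the lowest EtOH liver. The log2 fold change was 0.38 with a standard error of 0.08 and a 95% interval of 0.21 to 0.55 (adjusted p = 0.031 from limma). The call held in 15 of 24 alternative fits and was lost without any of control animal 4 or EtOH animals 2, 3, 5 and 6, with adjusted p values from 0.054 to 0.072 (limma). It was also lost in the values as deposited, without normalization between livers (log2 fold change 0.23, adjusted p = 0.12 from limma).

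Bckdha and Bckdhb encode the alpha and beta subunits of the E1 decarboxylase, and the alpha subunit carries the phosphate that the kinase adds. Bckdha lay between 63.3 and 86.3 RPKM in control livers (median 74.2) and between 60.0 and 74.3 RPKM in EtOH livers (median 64.0). Its log2 fold change was 0.02, with a 95% interval of -0.12 to 0.17 (adjusted p = 0.90 from limma), and its sign turned in the values as deposited (-0.13). Bckdhb lay between 53.5 and 67.6 RPKM in control livers (median 62.6) and between 52.7 and 61.5 RPKM in EtOH livers (median 57.8). Its log2 fold change was 0.10, with a 95% interval of -0.02 to 0.22 (adjusted p = 0.44 from limma), and it too turned sign as deposited (-0.07). The groups of both E1 genes overlapped, and neither interval reached that of Bckdk or Ppm1k.

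Dld encodes the E3 dihydrolipoyl dehydrogenase, which BCKDH shares with the pyruvate and 2-oxoglutarate dehydrogenase complexes. It lay between 54.1 and 66.9 RPKM in control livers (median 65.0) and between 51.2 and 60.3 RPKM in EtOH livers (median 53.1), with 4 of 6 EtOH livers under the lowest control liver. The log2 fold change after quantile normalization was -0.03, with a 95% interval of -0.16 to 0.10 (adjusted p = 0.83 from limma), and -0.195 as deposited. This gap between the 2 scales was general. Over the 3228 transcripts with a mean RPKM from 10 to 100, where most of the 10 genes lie, the median log2 fold change was -0.15 as deposited and 0.001 after quantile normalization. The value of Dld as deposited thus lay near the median of transcripts at its level.

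**Figure D2:**
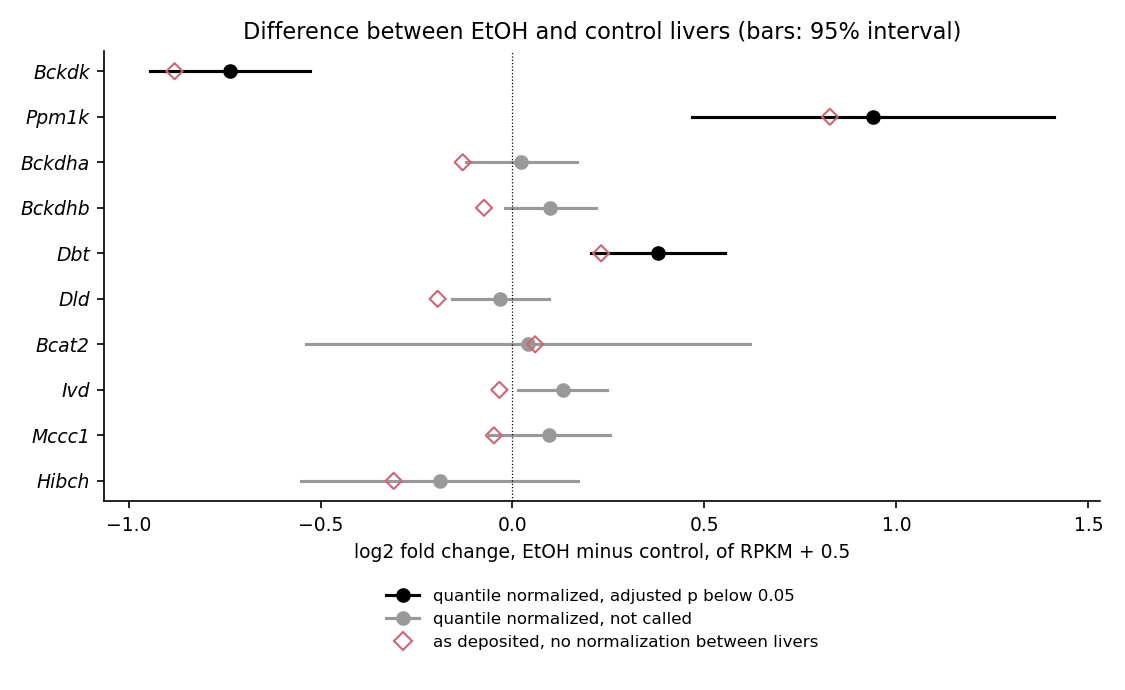
Log2 fold change (EtOH minus control, of RPKM + 0.5) of the 10 genes. Circles with 95% intervals are quantile normalized values, black where called, and open red diamonds are the values as deposited. Bckdk (-0.74) and Ppm1k (0.94) lie on opposite sides of 0 on both scales, Dbt (0.38) lies above 0 on both, and Bckdha, Bckdhb, Ivd and Mccc1 change sign between the scales.

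Ratios between transcripts of the same liver do not depend on the scaling between livers, and were used to set the kinase and the phosphatase against the subunits. They are scores over genes chosen with results known and are given without a test. Bckdk and Ppm1k each differed without overlap and in opposite directions, so the separation of their ratio follows from those levels and is no further evidence. In the control livers Ppm1k had 0.407 ± 0.125 RPKM per RPKM of Bckdk, against 1.36 ± 0.358 in the EtOH livers (mean ± SD of 6 animals each), a 3.34-fold higher mean. For control animals 1 to 6 the ratio was 0.383, 0.458, 0.180, 0.553, 0.413 and 0.451. For EtOH animals 1 to 6 it was 0.939, 1.77, 1.54, 0.9995, 1.69 and 1.21. In all 6 control livers the kinase transcript was the more abundant per length, and in 4 of 6 EtOH livers the phosphatase transcript was.

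Per mean RPKM of the 4 subunits, Bckdk lay between 0.366 and 0.466 in the control livers (median 0.423) and between 0.205 and 0.288 in the EtOH livers (median 0.220). On the same measure Ppm1k lay between 0.0691 and 0.210 in the control livers (median 0.184) and between 0.248 and 0.395 in the EtOH livers (median 0.309). Neither ratio overlapped between the groups. The levels of Bckdk and Ppm1k did not overlap either, so this separation largely repeats theirs. How often ratios of other transcripts separate in this way was not computed. As a difference of quantile normalized log2 fold changes, Bckdk fell by 0.85 against the mean of the subunits, and Ppm1k lay 0.82 above it. Across alternatives on a log2 scale, these differences ranged from -0.91 to -0.82 for Bckdk with a liver left out, and from 0.63 to 0.89 for Ppm1k, where the lowest value was that without control animal 3.

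Within the complex, the ratio of Dbt to Dld was 0.363 ± 0.0393 in control and 0.491 ± 0.0673 in EtOH livers (SD, n = 6 each), and all 6 EtOH livers (from 0.410) lay above the highest control liver (0.399). Dld had the lowest log2 fold change of the 4 subunits (-0.03), which favours a separation of this ratio. The ratio of Dbt to Bckdha was 0.313 ± 0.0474 in control and 0.401 ± 0.0488 in EtOH livers. Its groups overlapped, with 5 of 6 EtOH livers above the highest control liver. The ratio of Dbt to Bckdhb was not computed. The ratio of Bckdhb to Bckdha was 0.847 ± 0.0976 in control and 0.881 ± 0.104 in EtOH livers, and that of Dld to Bckdha 0.864 ± 0.112 and 0.823 ± 0.0971 (SD, n = 6 each). For both, the difference between groups was smaller than the SD of either group.

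**Figure D3:**
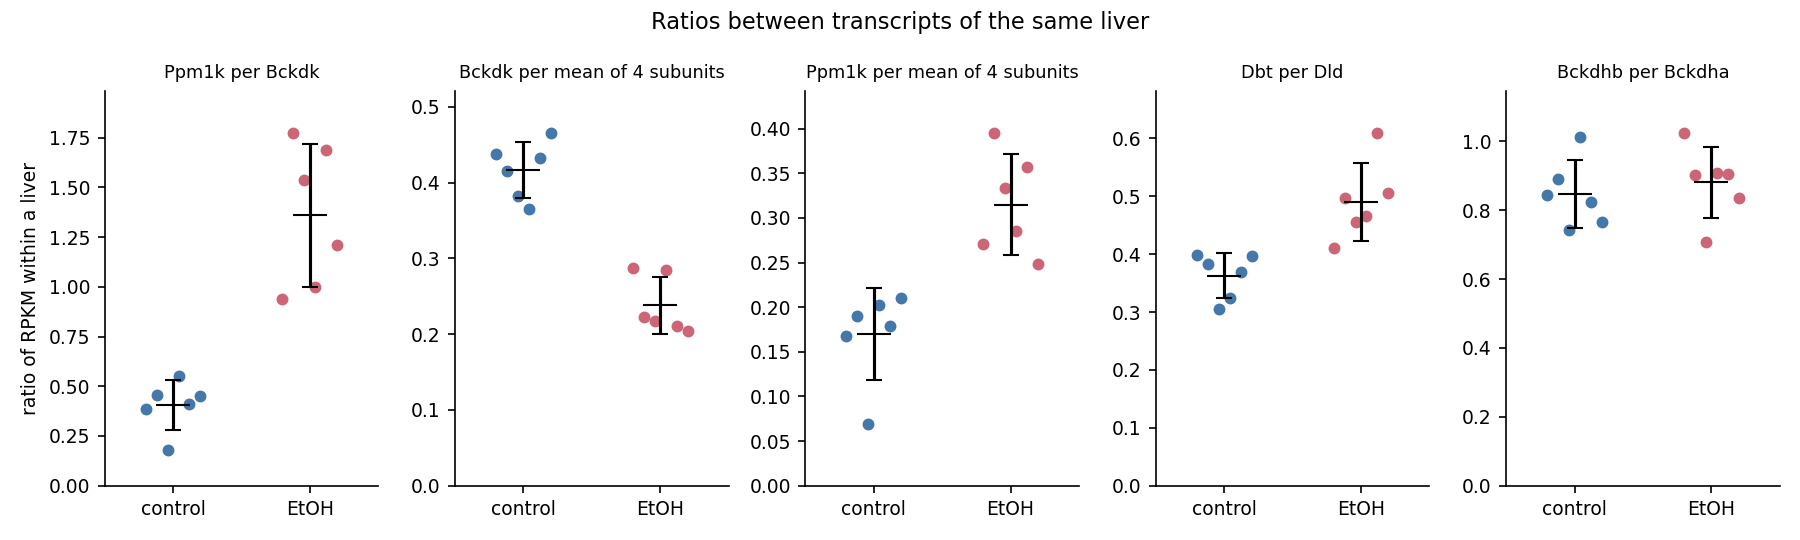
Ratios of RPKM within each liver (vertical axes, from 0, no unit), 1 point per liver, black marks the mean ± SD, 6 control (blue) and 6 EtOH (red) livers. Ppm1k per Bckdk is 0.553 or lower in control and 0.939 or higher in EtOH livers, which follows from the levels of Ppm1k and Bckdk themselves. Bckdhb per Bckdha overlaps between the groups.

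The remaining 4 genes act before or after BCKDH. Of these, 0 were called by limma and 1, Ivd, had an unadjusted p below 0.05, as had 15.5% of all tested transcripts. Bcat2, the mitochondrial branched-chain aminotransferase, was the least abundant of the 10, at 0.416 to 2.14 RPKM in control livers (median 0.874) and 0.665 to 1.95 RPKM in EtOH livers (median 0.898). It rested on 3 to 14 reads per liver, so that its 95% interval on the log2 scale ran from -0.54 to 0.62, and a change of the size of Dbt was not detectable at this depth. Ivd, isovaleryl-CoA dehydrogenase of the leucine branch, lay at 68.1 ± 5.48 RPKM in control and 66.4 ± 4.71 RPKM in EtOH livers (SD, n = 6 each). Its log2 fold change was 0.13 (95% interval 0.02 to 0.25, adjusted p = 0.25 from limma) and -0.03 as deposited.

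Mccc1, the biotin-carrying subunit of 3-methylcrotonyl-CoA carboxylase in the leucine branch, lay at 16.1 ± 1.86 RPKM in control and 15.5 ± 1.57 RPKM in EtOH livers (SD, n = 6 each). Its log2 fold change was 0.10 (95% interval -0.06 to 0.25, adjusted p = 0.59 from limma) and -0.05 as deposited. Hibch, 3-hydroxyisobutyryl-CoA hydrolase of the valine branch, lay between 10.2 and 20.6 RPKM in control livers (median 13.4) and between 8.94 and 13.7 RPKM in EtOH livers (median 11.6), with overlapping groups. Its log2 fold change was -0.19 (95% interval -0.55 to 0.17, adjusted p = 0.65 from limma), negative on both scales. The spread of Hibch among control livers was large, with a coefficient of variation of 28.5% against 8.05% for Ivd.

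In the control livers the order of mean levels was Bckdha (72.9 RPKM), Ivd (68.1), Dld (62.3), Bckdhb (61.2), Bckdk (22.8), Dbt (22.5), Mccc1 (16.1), Hibch (14.8), Ppm1k (9.21) and Bcat2 (0.999). In the EtOH livers it was Ivd and Bckdha (both 66.4 RPKM), Bckdhb (58.0), Dld (54.3), Dbt (26.5), Ppm1k (16.1), Mccc1 (15.5), Bckdk (12.2), Hibch (11.6) and Bcat2 (1.02). Neighbours closer than the larger of their SDs were Bckdha and Ivd in both groups, Dld and Bckdhb, Bckdk and Dbt, and Mccc1 and Hibch in the control livers, and Ppm1k and Mccc1, and Bckdk and Hibch, in the EtOH livers. The kinase thus stood beside Dbt in the control livers and beside Hibch in the EtOH livers. Between control animals, Bcat2 varied most, with a coefficient of variation of 61.2%, followed by Ppm1k at 29.7% and Hibch at 28.5%, and the others were from 8.05% to 11.9%. Without control animal 3 the coefficient of variation of Ppm1k was 11.5%.

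The secondary rows added little. Bckdhb had a second row above 0 in 1 control and 2 EtOH livers, at a mean of 0.145 RPKM against 59.6 for the main row. The second row of Hibch had a mean of 1.04 RPKM against 13.2, and lay at 1.52 ± 1.15 RPKM in control and 0.558 ± 0.706 RPKM in EtOH livers (SD, n = 6 each, adjusted p = 0.42 from limma). The second rows of Dld and Mccc1 were listed at 0 in all 12 livers.

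Of 21 further genes of the pathway, from transamination to propionate, 17 were found by name and tested, and those not found were Acad8, Hsd17b10, Mut and Mmab. Called were 1 of 17, which was higher in the EtOH livers, against 2.42% of all tested transcripts. The median log2 fold change was 0.02, against 0.0002 over all tested transcripts. As deposited the median of the 17 was -0.12, against -0.02 over all tested transcripts and -0.15 over those with a mean RPKM from 10 to 100. Acadsb, the short/branched-chain acyl-CoA dehydrogenase that follows BCKDH on the isoleucine branch, rose. It ranged from 49.0 to 68.8 RPKM in control livers (median 61.4) and from 70.5 to 82.1 RPKM in EtOH livers (median 77.1), without overlap. Its log2 fold change was 0.49 with a standard error of 0.09 (adjusted p = 0.022 from limma) and 0.33 as deposited. The call held in 22 of 24 alternative fits, and was lost without EtOH animal 2 and with animal number as a block.

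The lowest log2 fold change of the 17 was that of Slc25a44, the mitochondrial carrier for branched-chain amino acids. It lay at 13.3 ± 2.41 RPKM in control and 8.99 ± 0.684 RPKM in EtOH livers (SD, n = 6 each), with overlapping groups (log2 fold change -0.41 ± 0.11 SE, adjusted p = 0.070 from limma). It passed the threshold in 4 of 24 alternative fits. The other genes of the list were not called, and their log2 fold changes ran from -0.36 for Acaa2, the mitochondrial 3-ketoacyl-CoA thiolase, to 0.23 for Aldh6a1, methylmalonate-semialdehyde dehydrogenase of the valine branch, both named here after their values were seen. Acaa2 (adjusted p = 0.077 from limma), with 5 of 6 EtOH livers below the lowest control liver, passed the threshold in 4 of 24 alternative fits. Aldh6a1 (adjusted p = 0.16 from limma) passed it in 0. Of the 17 genes, 6 had an unadjusted p below 0.05, against 15.5% of all tested transcripts.

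**Figure D4:**
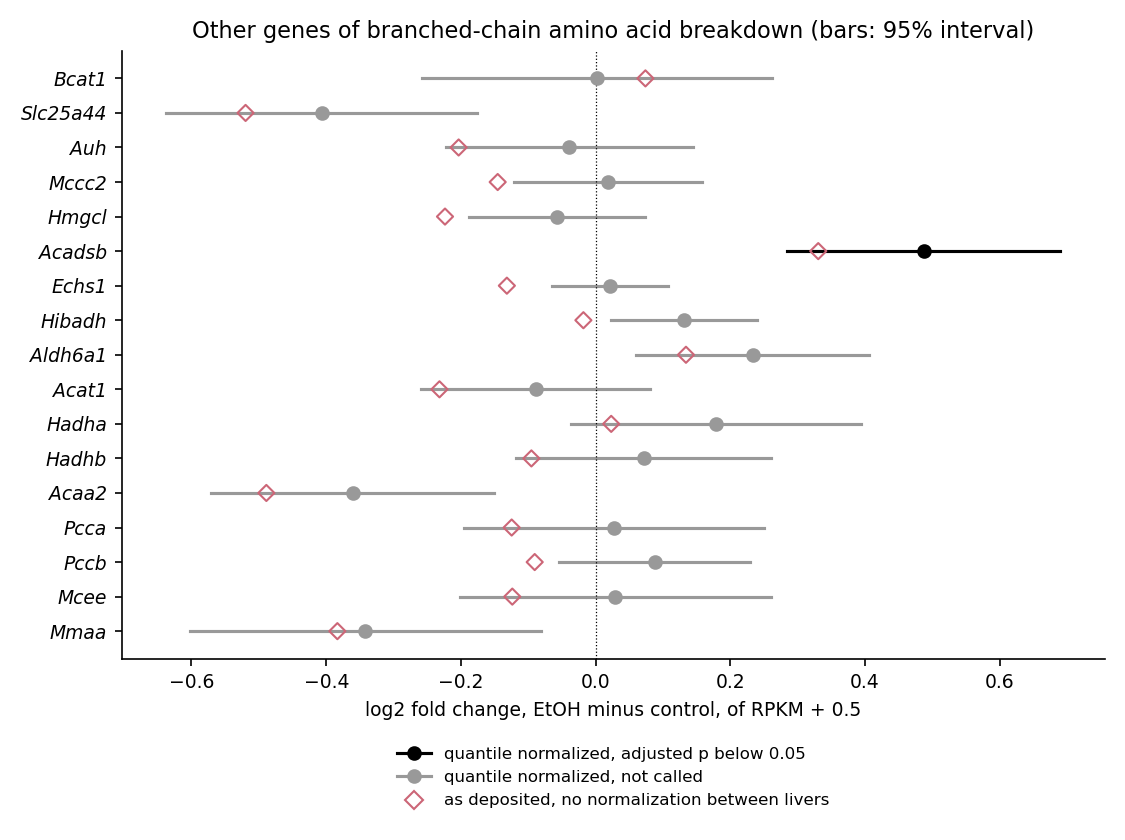
Log2 fold change (EtOH minus control, of RPKM + 0.5) of the 17 further pathway genes, drawn as in the plot of the 10 genes. Acadsb (0.49) is the only one called, Slc25a44 (-0.41) has the lowest value, and most genes lie near 0.

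BCKDH has close relatives in the pyruvate and 2-oxoglutarate dehydrogenase complexes, and the pyruvate dehydrogenase complex is likewise switched by its own kinases and phosphatases. Of 7 kinase, phosphatase and phosphatase regulator genes of that complex, 1 was called, Pdk4, at 21.7 ± 6.94 RPKM in control and 35.9 ± 6.82 RPKM in EtOH livers (mean ± SD of 6 animals, log2 fold change 0.89, adjusted p = 0.048 from limma), with overlapping groups and a call in 8 of 24 alternative fits. Pdk2, the most abundant of these kinases, lay at 68.6 ± 13.8 and 62.3 ± 12.0 RPKM (log2 fold change 0.03, adjusted p = 0.94 from limma). Pdp1, a phosphatase of that complex named here after its values were seen, had the lowest log2 fold change of the 7, at 0.878 ± 0.240 RPKM in control and 0.475 ± 0.171 RPKM in EtOH livers (mean ± SD of 6 animals, log2 fold change -0.55, adjusted p = 0.14 from limma), from 3 to 10 reads per liver. The other phosphatase, Pdp2, went the other way (log2 fold change 0.26, adjusted p = 0.18 from limma). So did the phosphatase regulator Pdpr (log2 fold change 0.31, adjusted p = 0.40 from limma). Neither was called, and both are named after their values were seen. Of the 7 genes, 3 had an unadjusted p below 0.05. Of 6 subunit genes of the related complexes, 0 were called by limma, and 0 had an unadjusted p below 0.05. Over all tested transcripts, 2.42% were called and 15.5% had an unadjusted p below 0.05.

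Of 5 regulators of liver metabolism, 4 were found, and Mlxipl was not. Klf15, a transcription factor known to raise genes of branched-chain amino acid breakdown, lay at 31.0 ± 5.05 RPKM in control and 29.8 ± 5.29 RPKM in EtOH livers (mean ± SD of 6 animals, log2 fold change 0.09, adjusted p = 0.74 from limma). Ppara, the fatty acid-sensing receptor of the fasted liver, had a log2 fold change of 0.59 (adjusted p = 0.096 from limma), and Ppargc1a, a coactivator, one of 0.39 (adjusted p = 0.49 from limma). Srebf1, a regulator of lipid synthesis, was called lower (log2 fold change -1.22, adjusted p = 0.030 from limma), a call that held in 14 of 24 alternative fits. Whether any of them acts on Bckdk or Ppm1k was not tested.

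The transcripts whose level followed Bckdk most closely from animal to animal were sought after subtracting each group's mean, over the 12 livers and the 9707 named transcripts whose mean was 1 RPKM or more. The highest correlations were those of Cp (0.93), Flt1 (0.88), Car7 (0.87), Rad54l (0.83) and Abcc5 (0.83). These are the top of many correlations over 12 values that share their libraries and scaling, and are given without a p. Among the 10 genes, Hibch was nearest to Bckdk, with a correlation of 0.46 at rank 736, while Ppm1k (0.11), Dbt (-0.09) and Bckdha (-0.11) were near 0.

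Over the whole table, 526 of 21718 transcripts were called. Of these 281 were lower and 245 higher in the EtOH livers, against 648 lower and 126 higher without normalization between livers and 337 lower and 194 higher with median scaling. The depth, as reads recovered from the RPKM, was 2610238 to 4318141 in control and 3945593 to 6030028 in EtOH livers, so the EtOH libraries tended to be deeper. Of the hepatocyte markers 5 of 6 were found, 1 of which, Cps1, was called higher. Their summed level, nearly all of it Alb, was 64407 to 91523 RPKM in control and 72604 to 98535 RPKM in EtOH livers. Cps1 itself lay at 488 to 661 RPKM in control and 714 to 948 RPKM in EtOH livers, without overlap. Ttr, Tat and Hnf4a had lower mean RPKM in the EtOH livers and were not called. Of 4 Kupffer cell markers 3 were found and 2 were called higher, Clec4f and Cd163. The summed level of the 3 was 66.9 to 104.1 RPKM in control and 91.1 to 112.0 RPKM in EtOH livers. The call of Clec4f held in 17 of 24 alternative fits and that of Cd163 in 10. Cd68 was not called (log2 fold change 0.23, adjusted p = 0.61 from limma). The part of hepatocytes or Kupffer cells in the changes of Bckdk, Ppm1k and Dbt was not tested. Cholangiocyte, stellate, endothelial, lymphocyte, erythroid, pancreatic acinar and skeletal muscle markers had overlapping summed levels, with 0 of 17 tested called by limma. An unadjusted p below 0.05 was found for 3 of the 17, against 15.5% of all tested transcripts. They were Rgs5 (log2 fold change 0.67) and Col1a1 (0.62) of stellate cells and Lyve1 (0.33) of endothelial cells. The stellate sum was 3.26 to 5.39 RPKM in control and 4.87 to 8.85 RPKM in EtOH livers. The part of stellate or endothelial cells in the changes of the 10 genes was not tested. The 3 adipocyte markers, Ckm of skeletal muscle, and Pnlip and Prss1 of pancreatic acinar cells were listed at 0 throughout. The acinar sum was nearly all Cpa1 (10.7 to 74.4 RPKM over all livers), since Cela1 was at most 0.535 RPKM.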

How the data were processed

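Hepatic poly(A) RNA of 6 control and 6 EtOH rats was sequenced in 101-nucleotide paired-end reads. CLCbio Genomics Workbench was used by the authors for mapping, and they deposited RPKM per transcript and liver. Further columns with the fold change, statistic and p values of their own comparison were not used. The values had no square-root or quantile step, and no source used here names the genome build.

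Whole reads were recovered as the smallest whole numbers, within 0.01 of a read, in the ratios of the depth-corrected RPKM of each transcript (all 21718 above 0). They count only reads assigned to listed transcripts, and cover counting error only. Comparisons used R 4.3.3 and limma 3.58.1, and other steps Python 3.11.15 with pandas 2.3.3 and scipy 1.17.1. The fit was tested on simulated data. Groups and animal numbers are those of the sample titles. Animals are separate individuals.

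The 10 genes, the other lists and the tests were chosen with earlier results of these data known. Named are all 10 genes, the called genes of the other lists, the non-overlapping and extreme genes of the further pathway list, the most abundant related kinase, all regulators, and the 5 transcripts that follow Bckdk best. No pairing of the livers by animal number was seen: the correlation of deviations from the group means of same-numbered animals lay between -0.067 and 0.032. Alternatives were pseudocounts of 0.1 and 1, other scalings, square-root values, the unmoderated pooled test on square-root values of the study's methods, minimum mean RPKM of 0.1 or 1, no trend, a block for animal number, leaving out each liver, voom on recovered reads and rows summed per gene name. Symbols and promoter sequences came from RefSeq GRCr8, whose coordinates were not joined to the table's.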

Additional observations from a re-analysis of the deposited data

Results flagged for a closer look

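Dixon's test at 95% was run on 42 groups of 6 livers, of which 5 stood out, and chance gives about 1 in 20. Dbt in EtOH animal 5 was 31.2 RPKM, where the other EtOH livers lay between 24.7 and 26.9 RPKM. Bcat2 in EtOH animal 1 was 1.95 RPKM, from 14 reads, where the others lay between 0.665 and 0.982 RPKM. The second Bckdhb row was 0.702 RPKM, from 1 read, in control animal 1 and 0 in the other control livers. Control animal 3 had a Ppm1k level of 0.0470 per RPKM of Bckdha, where the other controls lay between 0.130 and 0.171, and of 0.0691 per mean RPKM of the 4 subunits, where the others lay between 0.168 and 0.210. These last 2 values share the same Ppm1k measurement, and without that liver the log2 fold change of Ppm1k was 0.74 and it was still called (adjusted p = 0.025 from limma).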

How the results depend on the processing

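Transcripts called numbered 526, and 322 with the unmoderated pooled test on the square-root scale, 860 when only means of 1 RPKM or more were kept, 977 with rows summed per gene name (15270 tested), 113 with the animal number as a block, and 212 to 656 with each liver left out (275 and 285 without control 2 and 4, and 212, 252, 295 and 298 without EtOH 2 to 5). Of the 10 genes, 3 were called, against 1 without normalization between livers, with that pooled test and without a trend (Bckdk in each), 0 with the block, and 1 to 3 with each liver left out (1 without control 4 or EtOH 2, 3, 5 or 6). Of the 17 further genes, 1 was called, against 3 without normalization, with the filter at 1 RPKM and with rows summed, 0 with the block, and 0 to 2 with each liver left out (0 without EtOH 2, 2 without control 1 or 6). With the block, the adjusted p from limma was 0.051 for Bckdk, 0.12 for Ppm1k and 0.076 for Dbt. No pairing by number was seen, since 1 of 6 control livers correlated best with the EtOH liver of its own number. With 6 animals per group, such correlations cannot show whether a small shared effect was present.

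The directions of Bckdk, Ppm1k and Dbt were kept in all 24 alternatives. For Bckdha the log2 fold change turned to -0.13 without normalization, -0.038 with median scaling and -0.018 with voom, and ran from -0.011 to 0.049 with each liver left out. Without normalization, that of Bckdhb turned to -0.074, Ivd to -0.034 and Mccc1 to -0.049. With livers left out, Bcat2 ran from -0.095 to 0.23 and the second Bckdhb row from -0.042 to 0.32. None of these was called by limma. The cause was not tested. Bcat2 rested on 3 to 14 reads per liver and the second Bckdhb row on 0 to 2.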
